A study of Mus musculus with 3 samples.

Results

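The genes described here are 39 targets of the nuclear receptor PPAR alpha and enzymes of fatty acid oxidation, followed over 3 one-colour Agilent arrays of mouse liver. They were chosen by gene name, with earlier results of these data known, and all their probes were read by RefSeq entry. Shares over all genes are given beside their counts as a description and are not an independent check. Of the 39, 37 had a probe well above background on all 3 arrays and were compared, out of 13626 genes measured in this way and 20266 named genes with a probe. Each array held RNA of liver from strain c57BL6/J that made a human YAP, a coactivator held back by the Hippo pathway, and was taken at day 2. The WT array is liver with wild-type YAP, and the 1SA and 2SA arrays are livers with the active mutants of those names. Per the methods, vectors carrying Myc-tagged YAP were given by hydrodynamic tail vein injection, mostly to males of 8 weeks, and expression was driven by an AFP enhancer and albumin promoter, which restricts it to hepatocytes. All 3 groups therefore share the injection, the vector and a human YAP, the YAP reached only some of the hepatocytes, and an uninjected liver was not analysed here. Each group was 1 array, so the differences have no replicate check and no p-value was computed. Whether the RNA came from 1 animal or from several pooled is not in the labels, which number the WT liver 2.

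PPAR alpha is the main lipid sensor of hepatocytes. It binds DNA together with a retinoid X receptor, is activated by fatty acids and their derivatives, and is most active in fasting, when it raises genes for the uptake, transport and oxidation of fatty acids in mitochondria, peroxisomes and microsomes. Its classical targets in mouse liver include the Cyp4a enzymes, the acyl-CoA thioesterases of the Acot family and proteins that coat lipid droplets.

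Levels are given as multiples of the 75th percentile of intensity on the same array, and differences are on the log2 scale. A probe's brightness also depends on its sequence, so levels are compared between arrays and never between genes. The only repeat measurement was between spots of one probe: its median SD was 0.07 (log2) on each array, which gives an SD of 0.10 for a difference, and 2 SD is 0.21. That limit leaves out any variation from animal to animal. Between 28944 and 30755 probes per array were well above background, and no spot was saturated. All 3 arrays lay on 1 slide. Hepatocyte markers were present on every array (9 of 10 measured, the other having no named probe), with levels that summed to 4052 for WT, 4480 for 1SA and 3624 for 2SA. In whole liver, fewer cells of a type and less RNA per cell cannot be told apart.

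The first comparison asked how the genes differed in YAP (1SA) liver. They were lower almost throughout: 36 of 37 had a lower level on 1SA than on WT, where 50.3% of all genes did. By size, 25 were lower by more than the spot limit of 0.21 (19.1% of all genes) and 0 were higher by that much (16% of all genes). At least 2-fold lower were 6 of 37, namely Cyp4a14, Acot3, Cyp4a10, Cidec, Vnn1 and Acot2, against 1.14% of all genes, and 0 were at least 2-fold higher (0.727% of all genes). With a 1.5-fold limit the count was 11 (4.67% of all genes), adding Acot1, Angptl4, Plin2, Plin5 and Aldh3a2. The median difference was -0.34, against -0.002 over all genes. Among the brighter genes, those above the median signal, 33 of 34 members were lower (46.6% of such genes) and 4 were at least 2-fold lower (0.63%).

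YAP (2SA) liver had a smaller shift, and fewer members were at least 2-fold from WT. Here 32 of 37 were lower than on WT (56.4% of all genes) and 20 were lower by more than 0.21 (19.3% of all genes), with a median difference of -0.22 against -0.03 over all genes. Cidec alone was at least 2-fold lower (0.543% of all genes), and 0 members were at least 2-fold higher (1.12% of all genes). On the high side, 5 of 37 members (13.5%) were above WT by more than 0.21: Pdk4, Angptl4, Vnn1, Cd36 and Acot2. That is no more than the share of 15.6% over all genes. Of these, Pdk4 and Angptl4 were more than 1.5-fold higher, 2 of 37 (5.41%), near the share of 3.79% over all genes.

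Set directly against each other, 26 of 37 members were higher on 2SA than on 1SA (45.6% of all genes) and 6 were at least 2-fold higher (2.47% of all genes): Cyp4a14, Vnn1, Angptl4, Acot3, Acot2 and Cyp4a10. With normexp background correction Acot2 was at 0.67 in this comparison, under 2-fold. None was at least 2-fold lower (1.12% of all genes), and the 11 members lower by any amount became 4 to 13 under other scalings, since most of these differences were small. The 3 comparisons share arrays and are not independent. By array, 1SA held the lowest level for 26 of 37 members, 2SA for 11 and WT for 0, while over all genes those shares were 34.4% for 1SA, 42.1% for 2SA and 23.6% for WT. WT held the highest level for 31 members, 2SA for 5 (Cd36, Acot2, Pdk4, Angptl4 and Vnn1) and 1SA for 1 (Fabp1), where over all genes WT was highest for 30.3%, 2SA for 31.3% and 1SA for 38.5%.

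**Figure D1:**
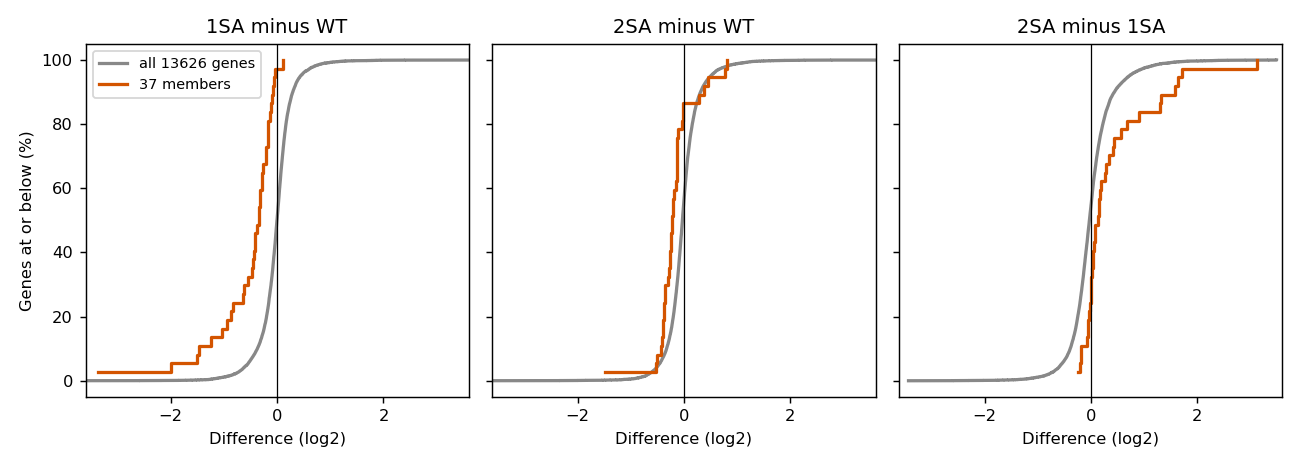
Share of genes (y axis, %) at or below a given log2 difference (x axis) for 1SA minus WT, 2SA minus WT and 2SA minus 1SA, with all 13626 measured genes in grey and the 37 members in orange. In the first panel the orange line lies left of the grey one nearly throughout and holds 36 of 37 members below 0, and in the third it runs to the right, up to 3.11 for Cyp4a14. A few genes beyond the axis limits are not shown.

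**Figure D2:**
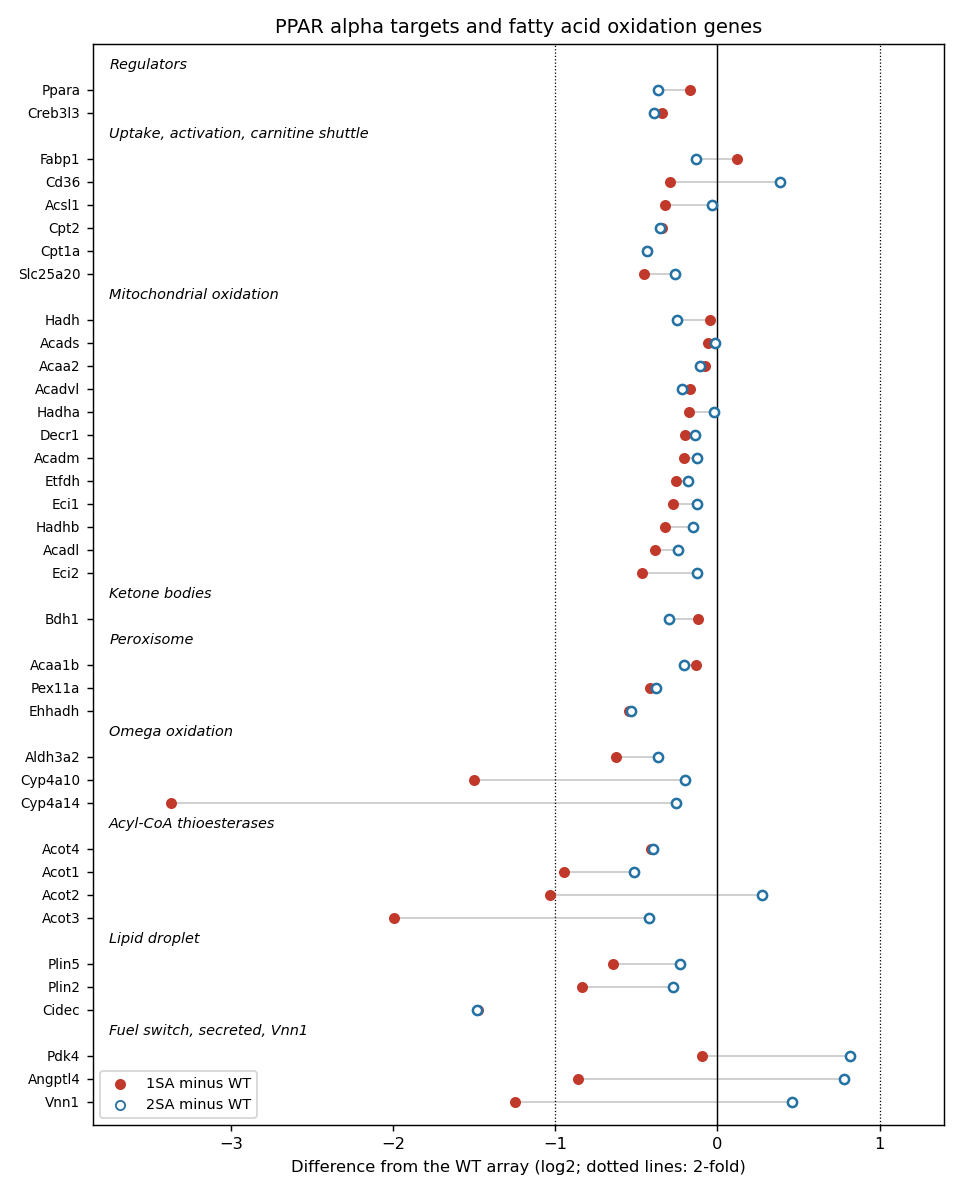
Difference from the WT array (x axis, log2) for each of the 37 members, grouped by role, with 1SA minus WT as filled red points and 2SA minus WT as open blue points. Dotted lines mark 2-fold. The red points of 6 genes lie beyond the left line, for Cidec both points lie there on top of each other, and Pdk4, Angptl4, Vnn1, Cd36 and Acot2 have blue points right of 0.

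PPAR alpha binds a DR1 element, a repeat of AGGTCA with 1 base between the copies. To show what such letters look like at these genes, the motif AGGTCANAGGTCA (N any base, both strands) was searched in RefSeq windows from 250 bases before to 50 bases after each gene's start, build GRCm38.p6, which held 32 of the 39 members. For a gene with more than 1 start, the window with the fewest mismatches was kept. Genes with more starts thus had more windows to match, and the shares were not adjusted for it. At most 2 mismatches in the 12 fixed bases were found in 6 of the 32 (18.8%) and in 1190 of 27025 genes overall (4.4%). With 3 allowed, the counts were 14 of 32 (43.8%) and 7366 of 27025 (27.3%). The 6 windows with the closest matches are shown first, since they show which members carry such letters near the start. Acot3, Cidec and Acot2 follow, as the members at least 2-fold lower on 1SA that have an entry, each with 3 mismatches. Capitals mark the 13 bases of the match, and each is written 5′ to 3′ on the strand on which it reads like the motif.
Fabp1, 1 mismatch, chr6:71199804-71199832, minus strand: tcagatatAGGCCATAGGTCAgtgattgt
Acot4, 2 mismatches, chr12:84038358-84038386, minus strand: gcacagacCGGCCAAAGGTCAtgcttcgg
Cd36, 2 mismatches, chr5:17835939-17835967, plus strand: atccaagtAAGTCAGAGGCCAgagaacca
Creb3l3, 2 mismatches, chr10:81092780-81092808, minus strand: ctgtaagtAGGGGAGAGGTCAcacagacc
Plin2, 2 mismatches, chr4:86670264-86670292, plus strand: tctgacttAGGTCAGGGGTCCtgaaagct
Slc25a20, 2 mismatches, chr9:108662134-108662162, plus strand: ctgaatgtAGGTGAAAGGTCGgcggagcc
Acot3, 3 mismatches, chr12:84052131-84052159, minus strand: agctaataACGGCAGAAGTCAgagatgga
Cidec, 3 mismatches, chr6:113435954-113435982, plus strand: atggcactAGGCAAGAGGGCAcagaagca
Acot2, 3 mismatches, chr12:83987795-83987823, plus strand: gctcagcaAGCACACAGCTCAgtctaagg
The 6 members with at most 2 mismatches had a median difference of -0.37 on 1SA and -0.27 on 2SA, and the 25 other compared members with an entry had -0.32 and -0.23. Fabp1, whose window is closest to the motif, was the member not lower on 1SA (0.12, and -0.03 under quantile normalisation). A match is a description of letters in a short window, and elements elsewhere in these genes were not searched. Cyp4a14, Angptl4, Vnn1, Acaa2, Cidea, Cyp4a10 and Decr1 had no entry.

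Of the 2 regulators, Creb3l3 was moderately lower in both mutants, and Ppara was lower beyond the spot limit only on 2SA for the probe used. Ppara, the receptor, was at 54.8 on WT, 48.7 on 1SA and 42.5 on 2SA, a difference of -0.17 on 1SA, inside the spot limit, and of -0.37 on 2SA, outside it. Its other probes gave -0.22 and -0.14 on 1SA and -0.44 and -0.26 on 2SA, so all 3 probes put 2SA lowest. Creb3l3, a liver factor of the fasting response that acts together with PPAR alpha, was at 142 on WT, 112 on 1SA and 109 on 2SA (-0.34 and -0.39). Between the mutants (2SA minus 1SA) Ppara differed by -0.20 for the probe used, inside the spot limit. Its other probes gave -0.22 and -0.13. The part of the Ppara level in the differences of the other members was not tested. Among 9 other regulators, which include the partner receptor Rxra and the coactivator Ppargc1a, 0 were 2-fold apart from WT in either mutant, and their median differences were 0.03 on 1SA and -0.04 on 2SA.

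Genes that take up fatty acids and carry them into mitochondria differed by less than 1.5-fold from WT. Cpt1a, the rate-setting carnitine acyltransferase of the outer mitochondrial membrane, was at 43.2 on WT, 32.0 on 1SA and 31.9 on 2SA, a difference of -0.43 in each mutant. Its probe was read from 8 or 9 spots per array with a spot SD of at most 0.04, and a second probe gave -0.38 and -0.33. Cpt2, which acts at the inner membrane, was at 47.9, 37.9 and 37.5 on WT, 1SA and 2SA (-0.34 and -0.35). A second, dimmer Cpt2 probe gave -0.27 on 1SA and -0.18 on 2SA, the latter inside the spot limit.

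Slc25a20, the carrier between these enzymes, was at 5.96 on WT, 4.36 on 1SA and 4.98 on 2SA (-0.45 and -0.26). Acsl1, which activates long-chain fatty acids to acyl-CoA, was at 121, 96.7 and 118 (-0.32 and -0.03), so it was lower on 1SA and within the spot limit on 2SA. The fatty acid transporter Cd36 was at 5.75 on WT, 4.71 on 1SA and 7.51 on 2SA, below WT in one mutant (-0.29) and above it in the other (0.38). Fabp1, the cytosolic fatty acid binding protein of liver, was at 556, 605 and 508, differences of 0.12 and -0.13 that lie inside the spot limit, and under quantile normalisation its difference on 1SA was -0.03.

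The 12 enzymes of mitochondrial beta oxidation differed little from WT. By more than the spot limit of 0.21, 5 of 12 were lower on 1SA (Acadl, Hadhb, Etfdh, Eci1 and Eci2), against 19.1% of all genes. On 2SA 3 of 12 were (Acadvl, Acadl and Hadh), near the share of 19.3% over all genes. Both medians lie inside that limit. All 12 were below WT on 1SA, by -0.47 to -0.04 with a median of -0.20, and this held under each scaling tried. On 2SA all 12 were also below WT, with a median of -0.13, though Acads (-0.01) and Hadha (-0.02) were at the WT level and changed sign under other scalings, Acads to 0.003 with the array median and Hadha to 0.006 with the series matrix values. The largest differences on 1SA were those of Eci2, an isomerase for unsaturated fatty acids (79.7 on WT, 57.7 on 1SA, 73.2 on 2SA), of the long-chain dehydrogenase Acadl (9.01, 6.91, 7.60) and of Hadhb, a subunit of the trifunctional protein (49.3, 39.5, 44.5).

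Among the acyl-CoA dehydrogenases, which take successive chain lengths, the differences on 1SA were -0.17 for Acadvl, -0.38 for Acadl, -0.20 for Acadm and -0.06 for Acads. The thiolase Acaa2 (-0.08 on 1SA and -0.11 on 2SA) and the short-chain dehydrogenase Hadh (-0.04 and -0.25) were little apart from WT on 1SA, while Etfdh, Decr1, Eci1 and Hadha lay between -0.28 and -0.17 there. The Decr1 probe used gave -0.20 on 1SA and -0.14 on 2SA, inside the spot limit. A second, dimmer Decr1 probe gave -0.38 and -0.37, outside it. Bdh1, which interconverts the ketone bodies, was at 62.3 on WT, 57.3 on 1SA and 50.5 on 2SA (-0.12 and -0.30), and its 3 probes all put it lower in both mutants. Of these enzymes 0 reached 1.5-fold.

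Of the peroxisomal members, Ehhadh and Pex11a were lower in both mutants. Ehhadh, the bifunctional enzyme of peroxisomal beta oxidation, was at 25.4 on WT, 17.4 on 1SA and 17.5 on 2SA (-0.54 and -0.53). Pex11a, which takes part in peroxisome division, was at 39.4, 29.6 and 30.4 (-0.41 and -0.38), read from 9 or 10 spots per array. Acaa1b, a peroxisomal thiolase, was at 65.0, 59.4 and 56.3, inside the spot limit on 1SA (-0.13) and at it on 2SA (-0.21). For Ehhadh and Pex11a the levels on 1SA and 2SA differed by at most 0.04, well inside the spot limit.

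On 1SA the largest difference was that of Cyp4a14, a gene of omega oxidation, the microsomal route that hydroxylates the far end of a fatty acid. Cyp4a14 (NM_007822) was at 26.6 on WT, 2.57 on 1SA and 22.3 on 2SA. WT and 2SA stood close together and 1SA far below them, 10.3-fold under WT (-3.37) and 8.66-fold under 2SA, while 2SA and WT were apart by -0.26. Across the alternatives the difference of Cyp4a14 on 1SA stayed between -3.42 and -3.32.

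Cyp4a10 (NM_010011) followed the same order, at 22.5 on WT, 7.95 on 1SA and 19.6 on 2SA (-1.50 and -0.20). Its second probe gave -1.51 on 1SA. The third was at 9.03, 6.30 and 9.26 and gave -0.52 and 0.04, so the probes had the same direction on 1SA but differed in size by 0.99. Aldh3a2, the aldehyde dehydrogenase that works after the Cyp4 step, was at 5.14, 3.34 and 3.99 (-0.62 and -0.37).

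Relatives of these genes lay on both sides of WT. Cyp4a14, Cyp4a10, Cyp4a31 and Cyp4a32 lie next to each other on chromosome 4 in the gene table, and Cyp4a31 (20.3 on WT, 6.88 on 1SA, 17.3 on 2SA) and Cyp4a32 (6.31, 2.28, 5.35) were lower on 1SA as well, by -1.56 and -1.47. Cyp4a12a and Cyp4a12b, in the same cluster, were higher on 1SA by 0.52 and 0.54. Near-identical copies such as Cyp4a10, Cyp4a31 and Cyp4a32 can bind one another's probes, the probe sequences were not analysed here, and how far their values are separate measurements is therefore uncertain.

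Acyl-CoA thioesterases, which release free fatty acids from coenzyme A, were next. Acot1, Acot2, Acot3 and Acot4 are neighbours on chromosome 12, and all 4 were lower on 1SA, with a median of -0.99. Acot3 (NM_134246), a peroxisomal enzyme, was at 1.06 on WT, 0.266 on 1SA and 0.791 on 2SA, 3.98-fold lower on 1SA and with WT and 2SA closer together (-0.42). A dimmer Acot3 probe was at 0.111 on WT and 0.0958 on 2SA and was not well above background on 1SA. Those values were 2.98-fold and 2.57-fold the lowest signal that counted as measured on the 1SA array.

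Acot2 (NM_134188), the mitochondrial member, was dim at 0.314 on WT, 0.153 on 1SA and 0.381 on 2SA, lower on 1SA (-1.03) and above WT on 2SA (0.28). With normexp background correction its difference on 1SA was -0.52, which is under 2-fold. Acot1, the cytosolic member, was at 3.996 on WT, 2.08 on 1SA and 2.80 on 2SA (-0.94 and -0.51). Acot4 was at 1.63, 1.22 and 1.23 (-0.41 and -0.40). As close copies, the Acot genes carry the same uncertainty about shared probes.

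**Figure D3:**
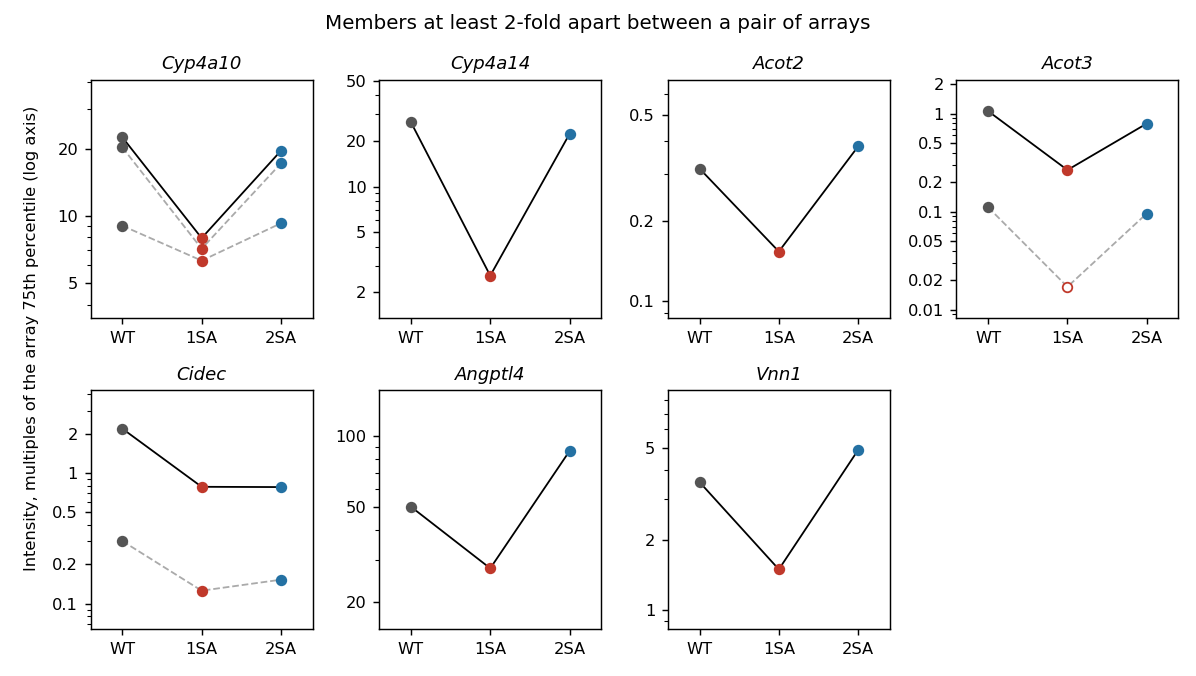
Intensity (y axis, multiples of the array's 75th percentile, log scale) on the WT, 1SA and 2SA arrays for the 7 members at least 2-fold apart between a pair of arrays. Each point is 1 probe on 1 array, joined in solid black for the probe used and in dashed grey for other probes, with an open point where the probe was not well above background. All panels but that of Cidec dip at 1SA, with Cyp4a14 at 26.6, 2.57 and 22.3, and Cidec stays low on 2SA.

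Lipid droplet proteins were lower on 1SA, and Cidec was low in both mutants. Cidec (NM_178373), which promotes droplet fusion and growth, was at 2.18 on WT, 0.783 on 1SA and 0.780 on 2SA, a difference of -1.48 in each mutant, or 2.78-fold and 2.80-fold. Its second, dimmer probe was at 0.302 on WT, 0.126 on 1SA and 0.153 on 2SA (-1.26 and -0.98), so both probes put WT highest, and the second fell just short of 2-fold on 2SA. Cidec is also abundant in adipocytes. Of 6 adipocyte markers, Adipoq, Lep, Plin1 and Retn were not well above background on any array. On WT, 1SA and 2SA, Cfd was at 0.176, 0.0908 and 0.0608 (-0.95 and -1.53) and Fabp4 at 8.40, 7.08 and 10.06 (-0.25 and 0.26). Their summed level of 8.58, 7.17 and 10.12 was nearly all Fabp4. Thus Cfd moved with Cidec and the other measured marker did not on 2SA, and the part of other cells in the Cidec result was not tested.

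Plin2, a coat protein that accumulates with stored lipid, was at 116 on WT, 65.0 on 1SA and 95.7 on 2SA (-0.83 and -0.28). Plin5, which links droplets to mitochondria, was at 18.8, 12.02 and 16.0 (-0.64 and -0.23). Both lay in the order WT, 2SA, 1SA. Cidea, a relative of Cidec, was well above background only on 2SA (0.0596). That value was 1.39-fold the lowest measured signal of the WT array and 1.60-fold that of the 1SA array.

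The measured genes of the switch from glucose to fat and of secreted signals were above WT on 2SA, as were Cd36 and Acot2. Together these were 5 of 37 members (13.5%), no more than the 15.6% of all genes higher by over the spot limit. Angptl4, a secreted inhibitor of lipoprotein lipase, was at 50.3 on WT, 27.7 on 1SA and 86.4 on 2SA, lower in one mutant (-0.86) and higher in the other (0.78), so that 2SA was 3.12-fold above 1SA. Vnn1 (NM_011704), a pantetheinase of the hepatocyte surface, was at 3.55, 1.497 and 4.89 (-1.25 and 0.46), a 3.26-fold difference between the mutants. WT was the middle array for both genes.

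Pdk4, the kinase that shuts off pyruvate dehydrogenase, was at 0.374 on WT, 0.351 on 1SA and 0.659 on 2SA, within the spot limit on 1SA (-0.09) and 1.76-fold higher on 2SA (0.82). The hormone Fgf21, which hepatocytes release in fasting and under stress, was well above background only on 2SA at 0.0870. That value was 2.02-fold the lowest measured signal of the WT array and 2.34-fold that of the 1SA array. Angptl4, Vnn1 and Pdk4 had their highest level on 2SA, while Fgf21 was measured on that array only and was not ranked.

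Other genes of the pathway were spread on both sides of WT. Of 78 further genes of fatty acid oxidation and PPAR biology, 76 were measured, and their median difference was -0.03 on 1SA and -0.05 on 2SA, close to the medians over all genes. Among separate lists, 11 genes of the fuel switch, such as Ucp2 (-0.59) and Pdk1 (0.59), had a median of -0.43 on 1SA. Of these, 7 of 11 were lower, where 50.3% of all genes were. On 2SA 11 of 15 uptake and activation genes were lower, where 56.4% of all genes were. Their median of -0.11 lies inside the spot limit. On 1SA, 3 of the 76 were at least 2-fold lower (1.14% of all genes) and 1 was at least 2-fold higher (0.727%). Besides Cyp4a31 and Cyp4a32, G0s2, an inhibitor of adipose triglyceride lipase, was lower (8.31 on WT, 3.78 on 1SA, 8.15 on 2SA, a difference of -1.13). Acacb, which makes the malonyl-CoA that blocks Cpt1a, was the higher one (5.32, 15.3 and 8.31, a difference of 1.52).

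On 2SA, 1 of the 76 was at least 2-fold higher (1.12% of all genes) and 1 was at least 2-fold lower (0.543%), counts near the shares over all genes. Txnip, a thioredoxin-binding protein that responds to glucose, was at 6.62 on WT, 4.40 on 1SA and 15.6 on 2SA (-0.59 and 1.24). The monoacylglycerol acyltransferase Mogat1 was dim and at 0.171, 0.127 and 0.0837 (-0.43 and -1.03).

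Genes of feeding state differed between the arrays too. Of 9 measured lipogenic genes, 8 were higher on 1SA (49.7% of all genes) with a median of 0.78, including Scd1 (1.52), Fasn (1.30) and Thrsp (1.21). On 2SA 9 were higher (43.6% of all genes), with a median of 0.40. Gluconeogenic genes had medians of 0.12 on 1SA and -0.27 on 2SA, where 5 of 7 were lower (56.4% of all genes). Igfbp1 was higher in both mutants, by 0.75 on 1SA and 1.08 on 2SA. Among 10 measured clock genes, which follow the hour of sampling, the medians were -0.07 on 1SA and -0.24 on 2SA. These medians hide differences in both directions. On 2SA 3 of the 10 were higher (43.6% of all genes) and 7 lower (56.4%), from -0.73 for Per2 to 1.20 for Arntl. Nr1d1 was at -0.67 on 1SA and 0.82 on 2SA. The hour of sampling and the feeding of the animals are not in the labels, and the part of either in the differences of the 37 members was not tested.

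**Figure D4:**
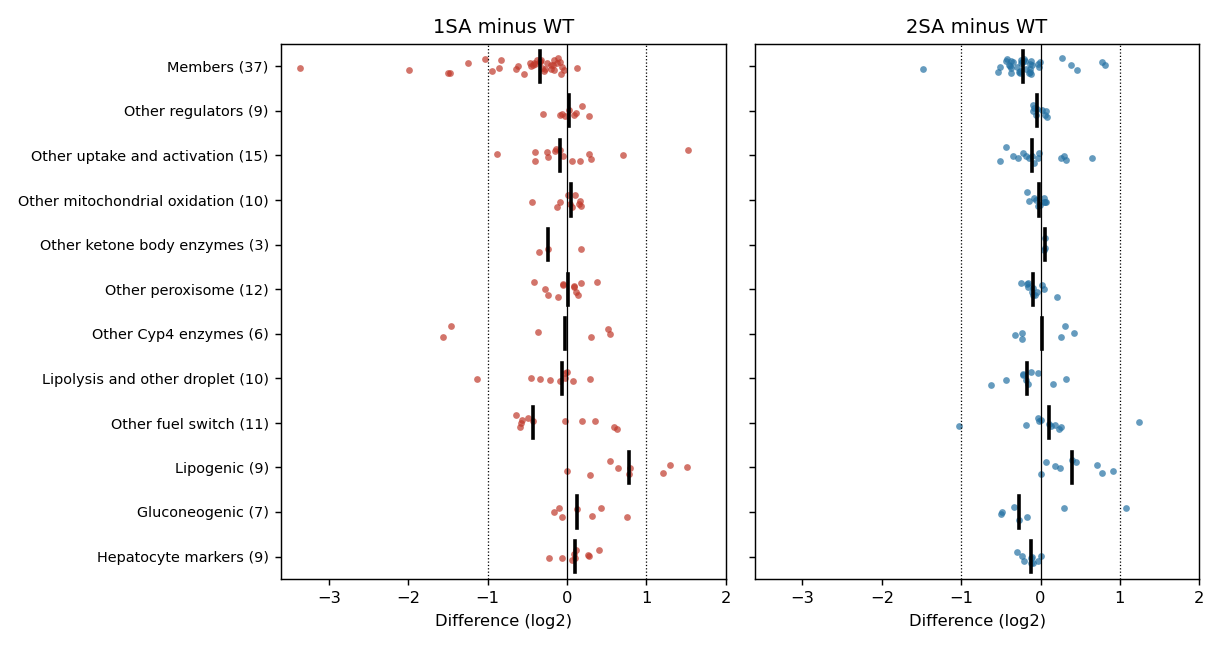
Log2 difference from WT (x axis) for 1SA in the left panel and 2SA in the right, with 1 point per gene in each list (measured genes in parentheses), a black bar at the list median and dotted lines at 2-fold. The vertical scatter of points has no meaning. The members have medians of -0.34 and -0.22, the lipogenic genes 0.78 and 0.40, and the other oxidation lists have medians between -0.17 and 0.11 except on 1SA, where the ketone body list lies at -0.24 and the fuel switch list at -0.43.

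Markers of other liver cells also differed between arrays. The levels of 7 Kupffer cell markers summed to 237 for WT, 179 for 1SA and 136 for 2SA, with median differences of -0.36 and -0.90, and those of 5 bile duct markers to 13.1, 4.30 and 10.8, most of it Spp1 (12.2, 3.66 and 9.80), with medians of -0.82 and -0.06. The 6 markers of sinusoidal endothelium had medians of -0.03 and -0.11, the 5 measured stellate cell markers -0.18 and -0.60, the 5 measured leukocyte markers 0.03 and 0.03, and the 2 measured red cell markers 0.67 and 0.27. Of the 9 hepatocyte markers 7 were higher on 1SA and 2 lower, Apoa1 by -0.23 and Apob by -0.07, with a median of 0.10, and on 2SA 8 were lower with a median of -0.12. The part of these cells in the differences of the members was not tested.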

How the data were processed

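Cy3-labelled liver RNA was hybridised to 3 Agilent arrays. The authors' deposited intensity of a spot (Agilent Feature Extraction 10.10.1.1) is linear, background-subtracted and not brought to one scale across arrays. Their series matrix holds the same intensity times 1 constant per array (3.02, 3.08 and 2.81 for WT, 1SA and 2SA), of unstated source, and served as an alternative. All log2 values were computed here from the deposited intensity.

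Spots that the software marked as non-uniform or as outliers were dropped (148 to 182 per array). Log2 values of a probe's spots were averaged, and log2 of the array's 75th percentile (290.8, 275.7 and 319.5) was subtracted. A probe was measured when at least 50% of its spots were well above background, and a gene was its brightest probe measured on all 3 arrays. A ratio to an unmeasured probe compares the bright value with the lowest measured signal of the dim array, or the dim value if higher. That signal is the lowest over all measured probes, so the ratio is not a strict lower limit. A gene table of GRCm38.p6 named 26727 of 55593 probes by RefSeq accession, and since the design was placed on mm9 it gave names and neighbours only. Of the 51 member probes, 46 were read from 1 spot.

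The members and other lists were chosen with earlier results of these data known. Every member was described. Pathway genes outside the list were named where at least 2-fold apart, and the remaining ones after their values were seen. Some genes of the lists are not reported here. With 1 array per group no test was run, and the number of arrays limits the precision. Alternatives were quantile normalisation, the array median, normexp with offset 50 (on median spot and background signals), the series matrix, no filter and a stricter filter on dim probes, outlier spots kept, 1.5-fold and 3-fold limits, and the mean of all probes. Python 3.11.15, pandas 2.3.3, numpy 2.4.6, matplotlib 3.10.9, R 4.3.3 and limma 3.58.1 were used.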

Additional observations from a re-analysis of the deposited data

Results flagged for a closer look

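Angptl4, Vnn1, Acot2 and Cd36 lay below WT on the 1SA array and above WT on the 2SA array by more than the spread between repeated spots, and the difference between the mutants was not tested, since each had 1 array. Angptl4 differed from WT by -0.86 on 1SA and 0.78 on 2SA. Vnn1 differed by -1.25 on 1SA and 0.46 on 2SA. Acot2, a dim probe, differed by -1.03 and 0.28, and Cd36 by -0.29 and 0.38. The share of all genes with such opposite differences was not computed.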

How the results depend on the processing

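The median difference of the members kept its sign under each alternative, from -0.41 to -0.30 for 1SA minus WT, from -0.23 to -0.18 for 2SA minus WT and from 0.08 to 0.21 for 2SA minus 1SA. Counts at 2-fold stayed within 1.5 times of those reported, except that 1 member was at least 2-fold higher on 2SA than on WT with no filter on dim probes. With a 1.5-fold limit 11 members were lower on 1SA and 2 were higher on 2SA than on WT. With a 3-fold limit 2 were lower on 1SA than on WT, 0 were lower on 2SA than on WT, and 3 were higher on 2SA than on 1SA. Members lower on 1SA ranged from 35 of 37 with normexp to 37 of 37 with quantile normalisation, and members lower on 2SA than on 1SA from 4 with quantile normalisation to 13 with the array median. Differences changed sign under some alternative for 2 members on 1SA against WT, 3 on 2SA against WT and 10 between the mutants, all of size 0.25 or less. Acot2 was -0.52 on 1SA and 0.67 between the mutants with normexp, and just under 2-fold on 1SA with the array median, and the cause was not tested. The stricter filter left 34 members. No paired analysis was possible because the groups had 1 array each. Dim probes such as those of Acot2, Pdk4, Cidea and Fgf21 are limited by signal over background, and 46 of the 51 member probes had 1 spot, so spot error could not be measured for each.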
